A study of Mus musculus with 13 samples.

Results

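The tumour necrosis factor (TNF) superfamily was followed at the RNA level in the lungs of mice with bleomycin-induced pulmonary fibrosis, with and without cannabinoid receptor 1 (CB1R). Members were taken by gene symbol: every gene whose symbol begins with Tnfsf or Tnfrsf followed by a digit, together with Tnf, Lta, Ltb, Cd40, Cd40lg, Fas, Fasl, Cd27, Cd70 and Ltbr. This gave 41 of the 20270 genes in the tables, 17 of them ligands and 24 receptors. The rule used no measured value. Lung RNA (right lower lobe, oligo(dT)-enriched, paired-end reads) came from 13 mice in 3 groups. The 4 control and 5 wildtype (WT) bleomycin mice were male C57BL/6J aged 13 weeks, and the 4 CB1R KO bleomycin mice were Cnr1-/- on the same background, with no age or sex given in the sources used here. Bleomycin, a drug that breaks DNA and scars the lung, was given once by the oropharyngeal route at 1 U per kg, and lungs were taken 14 days later. Control mice received the vehicle, and CB1R KO lungs without bleomycin were not analysed here, so the knockout can be compared only within injured lungs. Values by library are given in the order of mice 3, 21, 24 and 26 for control, mice 4, 2, 5, 4-B2 and 7 for WT bleomycin, and mice 8, 9, 10 and 11 for CB1R KO bleomycin.

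TNF superfamily ligands are mostly trimers held in the cell membrane, some of which are shed by proteases such as Adam17, and they signal by clustering receptors on the same or a neighbouring cell. Receptors with a death domain can recruit Fadd and Casp8 and kill the cell, while most of the others bind Traf proteins and switch on NF-kB. In the injured lung the family is known for TNF-driven inflammation, for death of epithelial cells through Fas and TRAIL receptors, for the TWEAK receptor on damaged epithelium and fibroblasts, and for costimulation of T cells.

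Depth was even in 12 libraries, which held 14615904 to 16662580 estimated counts, while CB1R KO mouse 11 had 53463884, 3.33 times the median of the others. Cnr1 itself stood at 1.62 to 4.1 CPM (counts scaled to a common library size) in control lungs, 3.46 to 6.97 in WT bleomycin lungs and 2.47 to 5.63 in the libraries labelled CB1R KO. The summed count of this gene therefore does not check the deletion, and every direction for the knockout rests on the labels. Control mouse 3 stood apart in B cell markers (summed TPM of 473, against 187 to 242 in the other control lungs), and its effect is given beside the genes it touches. Libraries with capitalised titles (control 26, WT 4-B2 and WT 7) were also left out as a check, although the labels give no batch. Markers of cardiac muscle, none at 0, summed to 602 to 1463 TPM in control, 118 to 432 in WT bleomycin and 438 to 761 in CB1R KO lungs, and their part in the results was not tested. The p-values measure the spread between these lungs. These are bulk samples, so fewer cells of a type and less RNA per cell cannot be told apart.

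Receptors made up most of the family's RNA in every group. On the TPM scale, which corrects for transcript length and so allows genes to be compared, the 24 receptors summed to 459 ± 26.2 in control, 708 ± 16.4 in WT bleomycin and 631 ± 31.5 in CB1R KO bleomycin lungs (mean ± SD, n = 4, 5 and 4). The lowest WT bleomycin lung, at 681, lay above the highest control lung, at 498. The 17 ligands summed to 219 ± 40.9, 184 ± 16.3 and 208 ± 17.1 TPM in the same order, with overlapping ranges of 175 to 274, 167 to 205 and 184 to 222. No test was made of these sums.

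In control lungs Tnfrsf1a, the main TNF receptor of most cells, was the most abundant member at 115 ± 6.62 TPM. Among the receptors, Ltbr followed at 63.4 ± 2.34 and Fas at 58.4 ± 14.5, and the ranges of these 2 genes overlapped. Tnfrsf12a was at 35.4 ± 6.03 TPM, and its range overlapped with that of Tnfrsf1b at 29.4 ± 5.28. After bleomycin Tnfrsf12a moved to the second place among all members in both genotypes, with 149 ± 9.9 TPM in WT lungs, where its range overlapped with that of Tnfrsf1a at 166 ± 7.52. In CB1R KO lungs it stood at 101 ± 17 TPM, below every Tnfrsf1a value of that group (148 ± 13.3).

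Among the ligands the order of the first 5 was the same in the 3 groups. Tnfsf12, which encodes TWEAK, led with 66.1 ± 5.31 TPM in control, 53.1 ± 3.24 in WT bleomycin and 56.2 ± 5.48 in CB1R KO lungs, and its range overlapped with that of Tnfsf10 (TRAIL) in control and CB1R KO lungs. Tnfsf10, Ltb, Tnfsf13 and Tnfsf13b came next, and Ltb overlapped with Tnfsf10 in every group. Tnf was far lower, at 1.1 ± 0.23, 2.68 ± 0.792 and 2.27 ± 1.12 TPM. In control lungs 4 ligands had a mean below 1 TPM, namely Tnfsf11, Tnfsf18, Cd70 and Tnfsf4, as did the receptors Tnfrsf8 and Tnfrsf17.

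**Figure D1:**
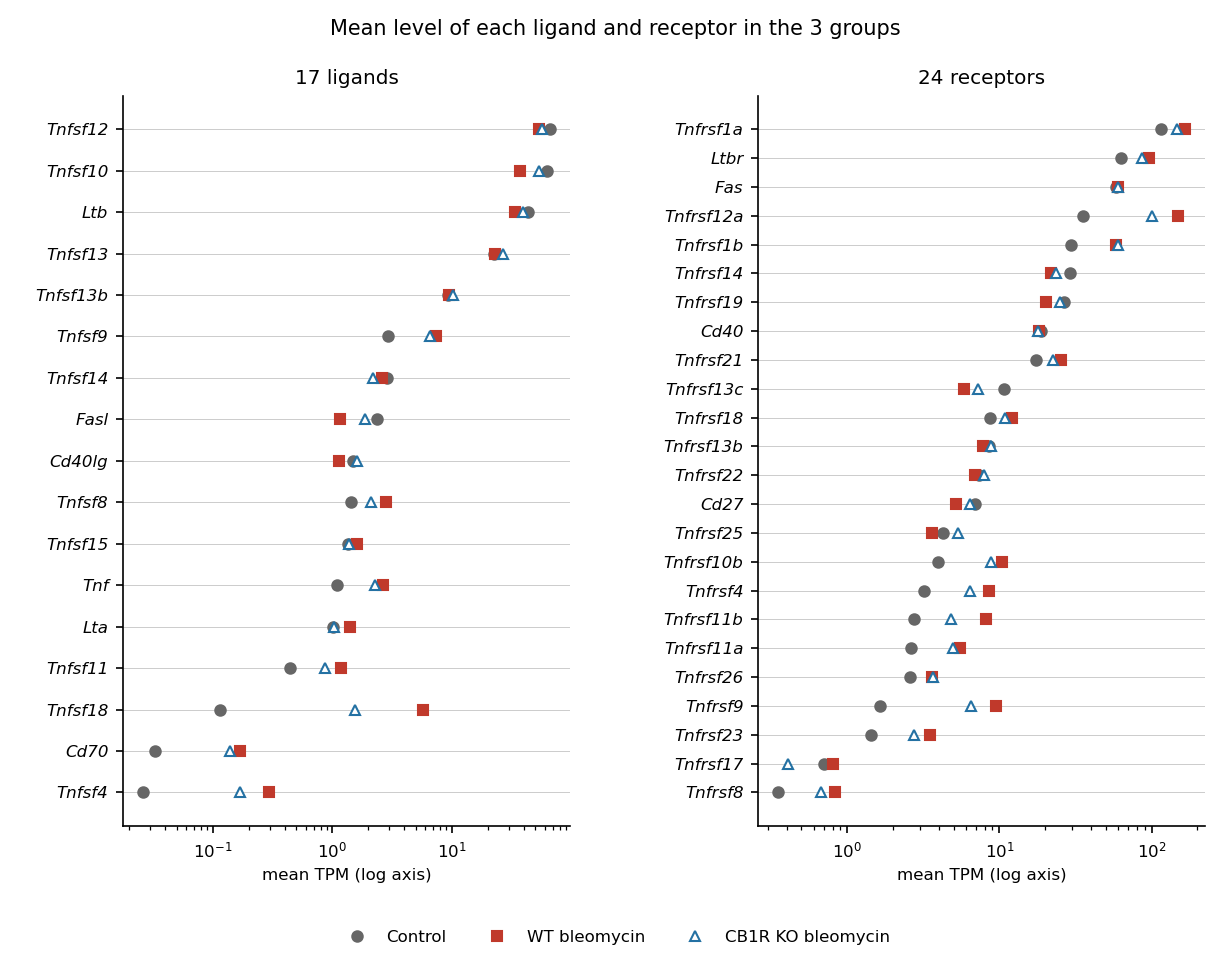
Mean TPM (log axis) of the 17 ligands and the 24 receptors in control, WT bleomycin and CB1R KO bleomycin lungs, sorted by the control level. Points are group means of 4, 5 and 4 libraries without error bars, and Tnfrsf12a shifts from 35.4 to 149 TPM while Fas stays between 58.4 and 60.5.

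The first comparison asked what bleomycin changed in WT lungs. Of the 38 members with enough counts to test, 26 passed an adjusted p of 0.05, of which 19 were higher and 7 lower after bleomycin. Across all 15315 genes tested, 48.9% passed, 25.0% higher and 23.9% lower. The receptors moved mainly upward (14 higher and 4 lower of 23), and the ligands both ways (5 higher and 3 lower of 15). The median log2 fold change of the members was 0.43, against -0.01 over all genes. In 17 members every WT bleomycin library lay above every control library (background 21.5%), and in 1 member, Tnfsf12, every one lay below (background 18.8%). Tests were two-sided quasi-likelihood tests of edgeR on the counts, with Benjamini-Hochberg adjustment over all genes tested. Errors of log2 fold changes are standard errors calculated back from these tests, as the size of the change over the square root of its F value. Of the 41 members, 32 reached the level of the count filter in every library, while Tnfsf18 reached it in no control library, so that its passing the filter already required a difference. Cd70, Tnfsf4 and Tnfrsf17 were too low to test.

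**Figure D2:**
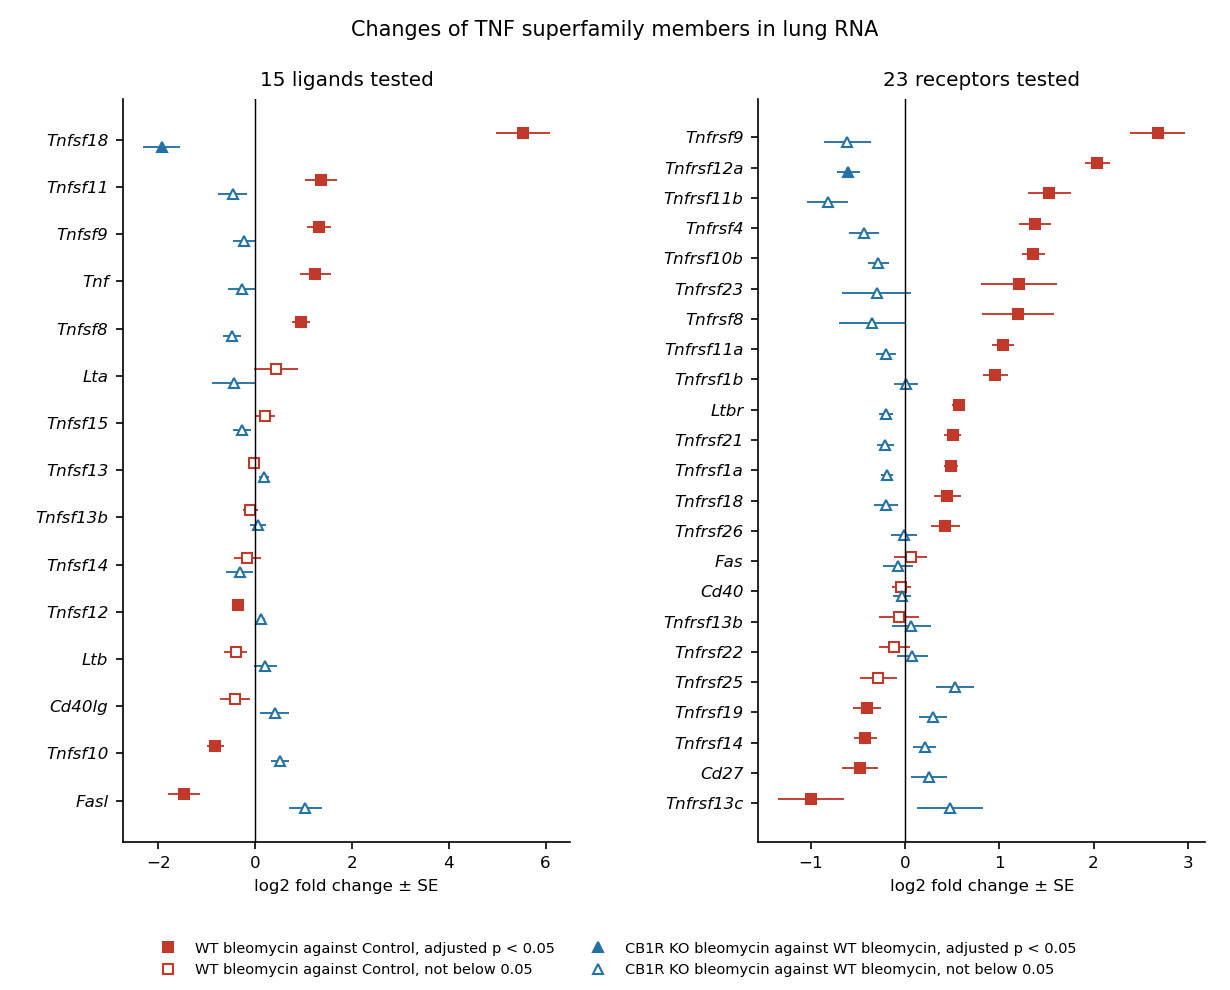
Log2 fold change ± SE of the 15 ligands and 23 receptors tested, for WT bleomycin against control (squares) and CB1R KO bleomycin against WT bleomycin (triangles), with filled symbols for an adjusted p below 0.05. The 26 filled squares lie on both sides of 0, and the 2 filled triangles, Tnfsf18 and Tnfrsf12a, lie below it.

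The 3 members with the largest fold changes after bleomycin were Tnfsf18, Tnfrsf9 and Tnfrsf12a, and the 250 bases before a transcription start of each are shown because they are where sequence could be set beside these changes. The windows come from RefSeq on GRCm38.p6, another build than the one the counts were made on, at chr1:161494407-161494656 on the plus strand for Tnfsf18, chr4:150927749-150927998 on the plus strand for the second of 2 listed starts of Tnfrsf9, and chr17:23677450-23677699 on the minus strand for Tnfrsf12a. Capitals mark matches on either strand to AP-1 (TGANTCA), TEAD (GGAATG), STAT (TTCNNNGAA), ISRE (a pair of GAAA with 2 bases between) or the kappaB motif.
Tnfsf18: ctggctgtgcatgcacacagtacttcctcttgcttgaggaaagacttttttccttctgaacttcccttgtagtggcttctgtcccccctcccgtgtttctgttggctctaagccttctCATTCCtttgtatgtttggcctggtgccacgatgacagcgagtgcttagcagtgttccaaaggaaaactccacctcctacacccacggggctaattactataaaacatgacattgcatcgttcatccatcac
Tnfrsf9: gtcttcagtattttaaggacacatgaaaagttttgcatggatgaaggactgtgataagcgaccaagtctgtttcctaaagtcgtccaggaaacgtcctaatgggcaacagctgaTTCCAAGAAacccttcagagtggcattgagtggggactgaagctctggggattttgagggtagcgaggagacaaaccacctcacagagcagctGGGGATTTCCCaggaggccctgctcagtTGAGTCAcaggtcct
Tnfrsf12a: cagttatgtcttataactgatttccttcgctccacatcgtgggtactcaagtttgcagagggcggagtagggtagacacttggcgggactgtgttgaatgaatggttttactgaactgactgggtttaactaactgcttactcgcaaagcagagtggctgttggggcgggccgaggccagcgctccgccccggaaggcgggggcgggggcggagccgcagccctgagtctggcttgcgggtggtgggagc
The Tnfsf18 window held 1 TEAD match, the Tnfrsf9 window a STAT match, 2 overlapping kappaB matches and an AP-1 match, and the Tnfrsf12a window held none of the 5 motifs. The other listed start of Tnfrsf9 had no match. A match is a description of letters only, not a site that was shown to be used.

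Windows reaching from 250 bases before to 50 bases past the start were found for 31 of the 41 members, which have 35 windows. AP-1 matches stood in 7 of the 35 windows, against 7.81% of all 32851 windows in the table. These windows belong to 6 of the 31 members, because overlapping windows of Tnfsf13b held the same match. STAT matches stood in 9 (background 8.3%), TEAD matches in 5 (14.7%), kappaB matches in 4 (8.46%) and ISRE matches in 4 (3.44%). Several members share a stretch of chromosome with no other protein-coding gene between them in the same RefSeq table. These runs were Tnfsf4, Tnfsf18 and Fasl on chromosome 1, Ltb, Tnf and Lta on chromosome 17, Tnfsf9, Cd70 and Tnfsf14 also on chromosome 17, Tnfsf13 and Tnfsf12 on chromosome 11, Tnfrsf26, Tnfrsf22 and Tnfrsf23 on chromosome 7, and on chromosome 4 the pairs Tnfrsf4 and Tnfrsf18, Tnfsf15 and Tnfsf8, and Tnfrsf1b and Tnfrsf8. Neighbours could differ in direction, as in WT bleomycin lungs Tnfsf18 rose while Fasl, the next gene, fell.

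Among the TNF and lymphotoxin ligands, 1 of 4 rose in WT bleomycin lungs (background 25.0% higher). Tnf, the macrophage cytokine that names the family, was at 1.19, 0.781, 1.28 and 1.29 CPM in control lungs and at 3.42, 3.46, 2, 2.28 and 2.22 CPM in WT bleomycin lungs. Every bleomycin lung was above every control lung. The log2 fold change was 1.24 ± 0.32 (adjusted p = 0.00534). The lymphotoxin genes Lta (0.43 ± 0.46) and Ltb (-0.40 ± 0.24), and Tnfsf14 (LIGHT, -0.16 ± 0.28), did not pass the test, with adjusted p of 0.463, 0.187 and 0.663. For Lta and Ltb, control mouse 3 was the highest control lung, at 1.84 and 48.9 CPM against at most 0.576 and 24.7 in the others.

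TWEAK, encoded by Tnfsf12, fell by 0.35 ± 0.08 on the log2 scale (adjusted p = 0.00288), from 47.9 to 57.7 CPM in control lungs to 38.2 to 46.3 in WT bleomycin lungs. The B cell survival factors Tnfsf13 (APRIL, -0.02 ± 0.11) and Tnfsf13b (BAFF, -0.10 ± 0.16) did not pass (adjusted p = 0.91 and 0.635). Tnfsfm13, a read-through gene listed apart in the tables, shares sequence with Tnfsf12 and Tnfsf13, so the split of reads among these genes is uncertain. It moved the same way as Tnfsf12, with a log2 fold change of -0.39 ± 0.08 (adjusted p = 0.00119), and is named here although it lies outside the rule for members.

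Fasl and Tnfsf10, the ligands of Fas and of the TRAIL receptor, both fell. Fasl, made by cytotoxic T and NK cells, was at 4.04, 1.32, 2.95 and 2.71 CPM in control lungs and at 1.08, 0.618, 0.875, 0.623 and 1.73 CPM in WT bleomycin lungs. Control 21 lay within the range of the bleomycin lungs, and the other control lungs lay above it. The log2 fold change was -1.47 ± 0.34 (adjusted p = 0.00237). Tnfsf10 (TRAIL) went from 134 to 256 CPM in control lungs to 89.8 to 142 in WT bleomycin lungs, a log2 fold change of -0.82 ± 0.18 (adjusted p = 0.0015). Markers of NK cells moved in the same direction: 6 of 6 fell, none was at 0, and their summed TPM was 80.2 to 107 in control, 20.7 to 32.5 in WT bleomycin and 38 to 55.4 in CB1R KO lungs. Markers of endothelial cells (5 of 7 lower, 1 higher), type II cells (5 of 6 lower) and B cells (7 of 8 lower) also fell. Those of monocytes and macrophages (7 of 9) and fibroblasts (4 of 7) rose. The part of these markers in the results for Fasl and Tnfsf10 was not tested.

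Of the 5 costimulatory ligands tested, 3 rose and none fell, against 25.0% higher and 23.9% lower over all genes. Tnfsf18, the ligand of the T cell receptor GITR, was all but missing from control lungs, with 0.178, 0.18, 0.128 and 0.129 CPM, or 2 to 3 counts a library. WT bleomycin lungs had 6.52, 7.17, 6.25, 8.1 and 9.32 CPM, or 100 to 151 counts. The groups lay far apart, and the summed counts of 587 and 10 gave a ratio of CPM of 48.2 with a 95% interval of 26 to 101, exact and for counting error only. The adjusted p was 2.47e-06, for a gene that reached the level of the count filter in no control library. The difference was 5.53 ± 0.56 on the log2 scale, a value that depends on the handling of the few control counts, since limma on log2(TPM + 1) gave 2.58.

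Tnfsf9, the ligand of Tnfrsf9, rose by 1.32 ± 0.25 (adjusted p = 0.00053), from 1.66 to 3.21 CPM in control lungs to 5.13 to 6.37 in WT bleomycin lungs. Tnfsf8, the CD30 ligand, rose by 0.95 ± 0.19 (adjusted p = 0.00077), from 2.9 to 4.28 to 5.68 to 8.87 CPM. Neither gene overlapped between the groups. Cd40lg (-0.42 ± 0.31) and Tnfsf15 (0.21 ± 0.19) did not pass, with adjusted p of 0.278 and 0.385. The untested Tnfsf4, which encodes the OX40 ligand, had 2 counts in all over the 4 control lungs, 27 over the WT bleomycin lungs and 17 over the CB1R KO lungs, and Cd70, the CD27 ligand, had 1, 6 and 4.

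Tnfsf11 encodes RANK ligand, known from osteoclast formation and from T cells and stromal cells. It rose from 0.576 to 0.721 CPM in control lungs to 1.14 to 2.72 in WT bleomycin lungs, a log2 fold change of 1.37 ± 0.33 (adjusted p = 0.00317). Its receptor Tnfrsf11a (RANK) was at 11.1, 9.91, 7.3 and 8.05 CPM in control lungs and at 18.5, 19.3, 18.9, 18.1 and 18.7 CPM in WT bleomycin lungs, which were the tighter group and lay above all control lungs. Tnfrsf11a rose by 1.04 ± 0.12 (adjusted p = 8.2e-06).

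Tnfrsf11b encodes osteoprotegerin, a secreted decoy that binds RANK ligand and TRAIL. Its values were 5.59, 6.85, 4.23 and 3.93 CPM in control lungs and 17.4, 17.5, 12, 13.9 and 14 CPM in WT bleomycin lungs, again without overlap. It rose by 1.53 ± 0.23 (adjusted p = 8.75e-05). The ratio of Tnfsf11 to Tnfrsf11b in TPM overlapped between the groups, at 0.135 to 0.211 in control, 0.0845 to 0.249 in WT bleomycin and 0.124 to 0.274 in CB1R KO lungs.

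All 4 receptors of TNF, lymphotoxin and LIGHT passed the test, and 3 of them rose (background 48.9% passed and 25.0% higher). Tnfrsf1a, which has a death domain, was at 166, 163, 155 and 154 CPM in control lungs and at 216, 228, 214, 244 and 222 CPM in WT bleomycin lungs. Every bleomycin lung was higher, with a log2 fold change of 0.49 ± 0.07 (adjusted p = 2.69e-05). Tnfrsf1b, the TNF receptor without a death domain that is common on leukocytes, was at 93, 74.6, 72 and 65 CPM and at 154, 176, 154, 123 and 132 CPM. This gene gained more, 0.96 ± 0.13 (adjusted p = 4.64e-05), and the groups did not overlap.

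Ltbr, the lymphotoxin beta receptor of stromal and myeloid cells, was at 85.8, 90.4, 84.7 and 85.5 CPM in control lungs and at 111, 126, 128, 146 and 132 CPM after bleomycin. All bleomycin lungs were higher, by 0.57 ± 0.07 (adjusted p = 9.93e-06). Tnfrsf14, the herpesvirus entry mediator, went the other way, from 13.7 to 16.6 CPM to 9.14 to 13.9 CPM, a log2 fold change of -0.42 ± 0.12 (adjusted p = 0.00967).

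Tnfrsf12a, the TWEAK receptor Fn14, had the lowest p of the family. Control lungs were at 16.8, 16.8, 21.5 and 24.1 CPM and WT bleomycin lungs at 79.6, 76.2, 75.6, 91.6 and 84.5 CPM. The groups were separated by more than the whole spread of either, with a log2 fold change of 2.04 ± 0.13 (adjusted p = 6.9e-08). Its ligand Tnfsf12 fell in the same lungs, so that the TPM of the receptor passed from below that of the ligand in control lungs (35.4 against 66.1) to above it (149 against 53.1). Markers of fibroblasts, a cell type known to carry this receptor, rose in 4 of 7 cases, none was at 0, and their sum was 569 to 695 TPM in control, 2072 to 2784 in WT bleomycin and 1512 to 2308 in CB1R KO lungs. Their part in the change of Tnfrsf12a was not tested.

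Of the 4 other death-domain receptors, 2 passed the test and both rose (background 48.9% passed and 25.0% higher). The share that passed was thus close to that over all genes. Tnfrsf10b, the mouse TRAIL receptor and a known p53 target, was at 9.15, 7.81, 7.94 and 8.63 CPM in control lungs and at 19.6, 25, 22.9, 22.4 and 18.1 CPM in WT bleomycin lungs. All bleomycin lungs were above all control lungs, with a log2 fold change of 1.36 ± 0.12 (adjusted p = 8.49e-07). Tnfrsf21 (death receptor 6) rose by 0.51 ± 0.09 (adjusted p = 0.000389). Fas was at 33.5 to 59 CPM in control and 39.2 to 60 CPM in WT bleomycin lungs, a log2 fold change of 0.06 ± 0.17 (adjusted p = 0.776), and Tnfrsf25, the receptor of Tnfsf15, differed by -0.28 ± 0.20 (adjusted p = 0.272).

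The mouse decoy receptors Tnfrsf22 and Tnfrsf23 and their relative Tnfrsf26 lie beside each other on chromosome 7. They are close copies, so the split of reads between them is uncertain. Tnfrsf23 rose by 1.21 ± 0.40 (adjusted p = 0.0205) and Tnfrsf26 by 0.43 ± 0.15 (adjusted p = 0.0249), while Tnfrsf22 differed by -0.11 ± 0.16 (adjusted p = 0.591). WT mouse 4 was low in Tnfrsf23, at 0.76 CPM against 2.69 to 3.67 in the other WT bleomycin lungs, so the groups overlapped. Without the libraries with capitalised titles neither change passed, with adjusted p of 0.223 for Tnfrsf23 and 0.158 for Tnfrsf26.

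Of the 6 costimulatory receptors, 4 rose and 1 fell, against 25.0% higher and 23.9% lower over all genes. Tnfrsf9, a receptor induced on activated T cells and on other cells, was at 2.2, 1.68, 1.22 and 0.966 CPM in control lungs and at 11, 8.4, 6.56, 15.5 and 7.78 CPM in WT bleomycin lungs. WT mouse 4-B2 was the highest, and no bleomycin lung came near the control range. The log2 fold change was 2.68 ± 0.29 (adjusted p = 5.2e-06). Tnfrsf4 (OX40) was at 1.96, 2.16, 1.79 and 1.68 CPM and at 4.69, 4.88, 5, 5.05 and 5.12 CPM, a narrow range well above the controls. It rose by 1.38 ± 0.17 (adjusted p = 1.31e-05).

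Tnfrsf8 (CD30) rose by 1.20 ± 0.38 (adjusted p = 0.0173) and Tnfrsf18 (GITR, the receptor of the Tnfsf18 product) by 0.45 ± 0.14 (adjusted p = 0.0138). Both calls were lost without the libraries with capitalised titles (adjusted p = 0.138 and 0.0971). Cd27 was lower by a margin at the threshold, -0.48 ± 0.19 (adjusted p = 0.0499), and Cd40 differed by -0.04 ± 0.10 (adjusted p = 0.767). Markers of T cells, on which most of these receptors are known, were mixed: 2 of 10 rose, 4 fell, none was at 0, and their summed TPM was 60.9 to 102 in control, 49.7 to 81.3 in WT bleomycin and 68.4 to 89.2 in CB1R KO lungs. Their part in the changes of these receptors was not tested.

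The BAFF receptor Tnfrsf13c, a gene of mature B cells, fell by 0.99 ± 0.35 (adjusted p = 0.03), from 6.06 to 18.5 CPM in control to 2.81 to 9.31 CPM in WT bleomycin lungs. Control mouse 3 held the highest value, and without it the log2 fold change was -0.53 (adjusted p = 0.179). Markers of B cells fell in 7 of 8 cases, none was at 0, and their sum was 187 to 473 TPM in control, 75.8 to 211 in WT bleomycin and 142 to 184 in CB1R KO lungs. Their part in the result was not tested. Tnfrsf13b (TACI) differed by -0.06 ± 0.21 (adjusted p = 0.821), and the plasma cell receptor Tnfrsf17 had 20, 27 and 28 counts in all over the control, WT bleomycin and CB1R KO lungs.

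Tnfrsf19 (TROY), a receptor known from stem and progenitor cells, fell by 0.40 ± 0.15 (adjusted p = 0.0459). Control mouse 3 was again the highest, at 79.9 CPM against 50.1 to 54 in the other control lungs. Without it the log2 fold change was -0.21 (adjusted p = 0.213), and the call on Cd27 was lost as well (-0.35, adjusted p = 0.17). Other alternatives also lost these calls: of 25 run, Tnfrsf13c was called in 17, Tnfrsf19 in 15 and Cd27 in 9.

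**Figure D3:**
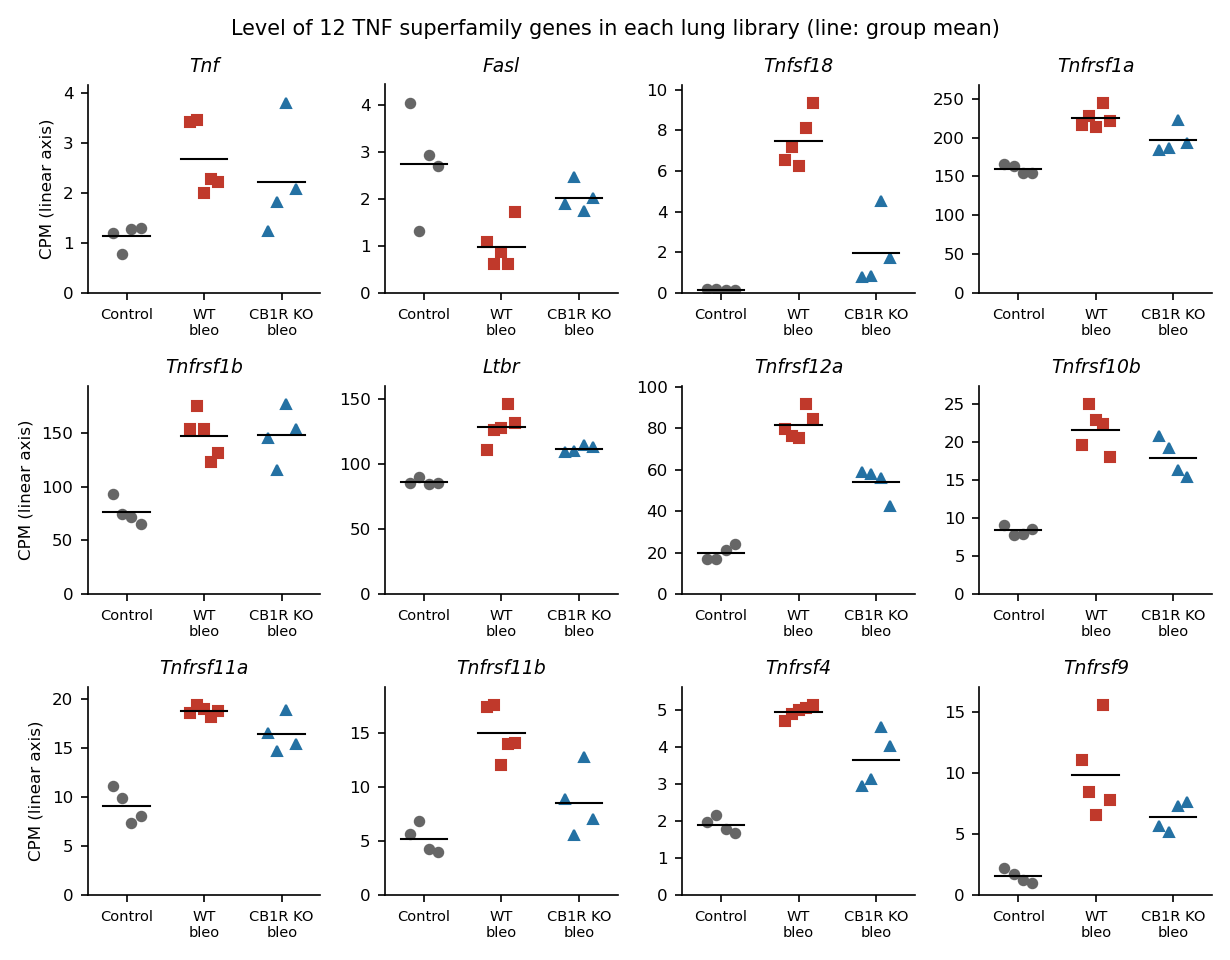
CPM on a linear axis starting at 0 of 12 members in each library, as circles for control, squares for WT bleomycin and triangles for CB1R KO bleomycin, with a line at the group mean. Of these genes Fasl has its lowest mean in WT bleomycin lungs (0.984 CPM), and Tnfsf18, Tnfrsf12a and Tnfrsf4 have the CB1R KO lungs between the other two groups without overlap.

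The second comparison asked whether injured lungs of the libraries labelled CB1R KO differed from injured WT lungs. Of the 38 members, 2 passed the test and both were lower in the knockout, the ligand Tnfsf18 and the receptor Tnfrsf12a. Across all genes tested 0.979% passed, 0.620% of them lower and 0.359% higher, each as a share of all genes. At an unadjusted p below 0.05 there were 13 members, 10 lower and 3 higher (background 17.0% of all genes, 9.08% lower and 7.95% higher). The log2 fold change was below 0 in 23 of 38 members (background 49.9%), with a median of -0.19 against 0 over all genes. This comparison shares the WT bleomycin lungs with the first one, so the 2 sets of values are not independent.

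Tnfsf18 was at 0.785, 0.844, 4.54 and 1.72 CPM in the libraries labelled CB1R KO, against 6.25 to 9.32 CPM in WT bleomycin lungs. Mouse 10 was much higher than the other knockout lungs, yet still below all WT bleomycin lungs. The log2 fold change was -1.93 ± 0.38 (adjusted p = 0.0315), and the ratio of CPM from summed counts was 0.252 with a 95% counting interval of 0.213 to 0.297, which does not cover the spread between mice. Without mouse 10 the difference was -2.63 (adjusted p = 0.000395).

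Tnfrsf12a was at 59.1, 57.9, 56.3 and 42.3 CPM in the knockout lungs against 75.6 to 91.6 CPM in WT bleomycin lungs, with no overlap. Mouse 11, the most deeply sequenced library, was the lowest. The log2 fold change was -0.60 ± 0.12 (adjusted p = 0.0314). Thinning mouse 11 to the depth of the other knockout lungs left -0.61 (adjusted p = 0.0366), and leaving it out gave -0.49 (adjusted p = 0.0837).

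Neither call survived every omission of a library. Leaving out WT mouse 2, 5, 4-B2 or 7, or knockout mouse 8, 9 or 11, raised the adjusted p of both genes above the threshold, and without the libraries with capitalised titles the adjusted p was 0.171 for Tnfrsf12a and 0.235 for Tnfsf18. The direction was the same throughout, with log2 fold changes of -0.65 to -0.49 for Tnfrsf12a and -2.63 to -1.52 for Tnfsf18 over the alternatives that gave a value. Fibroblast markers stood at lower values in all 7 cases in the knockout, although none passed. Of 6 markers of type II cells 3 were higher, with none at 0. Their summed TPM was 18960 to 22654 in WT bleomycin and 23678 to 37202 in CB1R KO lungs. Knockout mouse 10 had this lowest type II sum, against 33040 to 37202 in mice 8, 9 and 11. It also had the highest fibroblast sum of its group, 2308 TPM against 1512 to 2044. The part of these markers in the results for Tnfsf18 and Tnfrsf12a was not tested.

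Of the other receptors, Tnfrsf11b came closest to the threshold. The knockout lungs were at 8.83, 5.55, 12.7 and 6.98 CPM, and mouse 10 alone reached into the WT bleomycin range. The difference was -0.82 ± 0.22 (adjusted p = 0.082). Tnfrsf4 was at 2.94, 3.14, 4.54 and 4.02 CPM, below every WT bleomycin lung, with a log2 fold change of -0.43 ± 0.16 (adjusted p = 0.183). Non-overlap of this kind below the WT lungs was seen in 3 members, Tnfsf18, Tnfrsf12a and Tnfrsf4 (background 3.10%).

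The TNF receptors gave small differences that did not pass. Tnfrsf1a was at 184, 187, 223 and 193 CPM in the knockout lungs, -0.19 ± 0.06 from WT bleomycin (adjusted p = 0.157), and Ltbr at 109, 110, 115 and 113 CPM, -0.20 ± 0.07 (adjusted p = 0.149). Both overlapped with the WT bleomycin lungs. Tnfrsf1b was at 146, 116, 177 and 154 CPM, and its difference was 0.01 ± 0.13 (adjusted p = 0.986). Tnf was at 1.24, 1.81, 3.79 and 2.07 CPM, with mouse 10 above all WT lungs, and differed by -0.27 ± 0.29 (adjusted p = 0.682).

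Tnfrsf9 was at 5.63, 5.13, 7.27 and 7.57 CPM (-0.61 ± 0.25, adjusted p = 0.23), Tnfrsf10b at 20.8, 19.2, 16.3 and 15.4 CPM (-0.28 ± 0.11, adjusted p = 0.234) and Tnfrsf11a at 16.5, 14.7, 18.8 and 15.4 CPM (-0.20 ± 0.11, adjusted p = 0.403). Each of these genes overlapped with the WT bleomycin lungs. The death ligands stood on the other side of 0. Fasl was at 1.9, 2.47, 1.74 and 2.03 CPM in the knockout, all above the WT bleomycin lungs though by a small margin (1.74 against 1.73 CPM), with a log2 fold change of 1.04 ± 0.34 (adjusted p = 0.148). It was the 1 member without overlap in this direction (background 2.50%). Tnfsf10 differed by 0.51 ± 0.18 (adjusted p = 0.162). Beside these 2 genes 2 of 6 NK cell markers were higher and the other 4 did not pass. Of the other markers that fell in WT bleomycin lungs, 3 of 6 for type II, 1 of 7 for endothelial and 0 of 8 for B cells were higher.

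The third comparison set the CB1R KO bleomycin lungs against control, which joins the effects of injury and genotype because no uninjured knockout was analysed here. It shares its control lungs with the first comparison and its knockout lungs with the second. Of the 38 members, 14 rose and none fell, against 35.4% of all genes called, 19.0% higher and 16.3% lower. At an unadjusted p below 0.05 there were 18 higher and 1 lower (background 23.7% and 21.8%). By kind, 11 of 23 receptors and 3 of 15 ligands rose, and in 11 members the groups did not overlap, all with the knockout above control (background 17.7% above and 15.8% below).

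The log2 fold changes were 1.44 ± 0.13 for Tnfrsf12a, 2.07 ± 0.30 for Tnfrsf9, 1.09 ± 0.13 for Tnfrsf10b, 0.96 ± 0.14 for Tnfrsf1b and 0.95 ± 0.17 for Tnfrsf4 (adjusted p of 3.16e-06, 0.000136, 2.21e-05, 0.000137 and 0.000816). Tnfrsf11a (0.84 ± 0.12), Tnfrsf11b (0.71 ± 0.24), Tnfrsf26 (0.42 ± 0.15), Ltbr (0.37 ± 0.07), Tnfrsf1a (0.30 ± 0.07) and Tnfrsf21 (0.30 ± 0.10) made up the other receptors that rose. The call on Tnfrsf26 was made in only 11 of 25 alternatives (adjusted p up to 0.146), that on Tnf in 16 (up to 0.129), that on Tnfrsf11b in 18 (up to 0.121) and that on Tnfrsf21 in 21 (up to 0.0738). The ligands that rose were Tnfsf18, Tnfsf9 (1.09 ± 0.26) and Tnf (0.97 ± 0.33). For Tnfsf18 the ratio of CPM from 192 and 10 summed counts was 12.1 with a 95% counting interval of 6.46 to 25.7. Again, no control library of this gene reached the level of the count filter. Fasl and Tnfsf10, which fell in WT bleomycin lungs, differed here by -0.43 ± 0.33 and -0.31 ± 0.19 and did not pass (adjusted p = 0.329 and 0.212). That a gene passed in one genotype and not in the other does not show a difference between the genotypes, which only the second comparison tests.

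The pathway around the receptors was described with lists of 64 genes chosen by function, all of which were tested. The lists were chosen with earlier results of these data known, so their counts are a description and not independent support. In WT bleomycin lungs 33 rose and 7 fell (background 25.0% higher and 23.9% lower), with a median log2 fold change of 0.27. Genes that TNF is known to induce in endothelium and stroma had the largest median of the 6 lists, 1.53, and 12 of 14 rose. Cxcl10, a T cell chemokine, rose by 3.60 ± 0.28, Ccl2, a monocyte chemokine, by 3.48 ± 0.35, and the adhesion molecule Icam1 by 0.55 ± 0.07 (adjusted p of 3.02e-07, 2.24e-06 and 1.78e-05). Markers of monocytes and macrophages, which can make these chemokines, rose in 7 of 9 cases with none at 0, and their sum was 6410 to 7185 TPM in control, 7533 to 10787 in WT bleomycin and 11092 to 11922 in CB1R KO lungs. Against WT bleomycin lungs, 8 of these 9 markers stood lower in the knockout and none passed, although their sum was higher. The part of these markers in these results was not tested.

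All 7 death effectors passed in WT bleomycin lungs, 6 higher and 1 lower (background 25.0% higher and 23.9% lower). The necroptosis pair Ripk3 (0.86 ± 0.10) and Mlkl (0.93 ± 0.14) rose, with adjusted p of 7.73e-06 and 8.61e-05. Of 9 relatives and processing enzymes, 6 rose and 1 fell, led by Eda2r, a receptor of the same family that lies outside the rule and is a known p53 target, at 2.47 ± 0.16 (adjusted p = 8.68e-08). The protease Furin (0.69 ± 0.08) and the Adam17 partner Rhbdf2 (0.59 ± 0.08) rose with it (adjusted p = 5.8e-06 and 2.38e-05).

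Of 13 receptor adaptors and ubiquitin ligases 3 rose and 3 fell, a share called of 46.2%, close to the 48.9% over all genes, with Traf1 at -0.53 ± 0.10, Rnf31 at -0.29 ± 0.07 and Traf3 at 0.31 ± 0.07 (adjusted p = 0.000423, 0.00251 and 0.0033). Of 13 kinases and NF-kB subunits 3 rose and 1 fell (30.8% called). The subunits of the non-canonical branch, Nfkb2 (0.86 ± 0.10) and Relb (1.04 ± 0.16), were among those that rose, and the kinase Ikbkb (-0.27 ± 0.06) was the one that fell (adjusted p = 9.98e-06, 8.8e-05 and 0.00142). Of 8 feedback inhibitors 4 were called, and 3 rose, among them Nfkbie (1.24 ± 0.19) and Tnip1 (0.43 ± 0.08), and Nfkbia fell (-0.75 ± 0.19), with adjusted p of 0.000111, 0.000382 and 0.00526.

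In the knockout comparison 2 of the 64 pathway genes passed, both lower than in WT bleomycin lungs (background 0.620%). Ccl2 went from a mean of 9.8 to 4.06 CPM, a log2 fold change of -1.29 ± 0.29 (adjusted p = 0.0478), and Furin from 244 to 190.0 CPM, -0.36 ± 0.08 (adjusted p = 0.0411). The endothelial selectins Sele (-1.08 ± 0.27) and Selp (-1.14 ± 0.30) did not pass (adjusted p = 0.0702 and 0.0794). Both calls depended on single libraries as those of Tnfsf18 and Tnfrsf12a did, and over the alternatives the adjusted p reached 0.236 for Ccl2 and 0.276 for Furin. Against control, the knockout lungs had 28 pathway genes higher and 5 lower (background 19.0% and 16.3%), and 6 of the 7 death effectors and 10 of the 14 TNF-inducible genes were among those that rose.

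**Figure D4:**
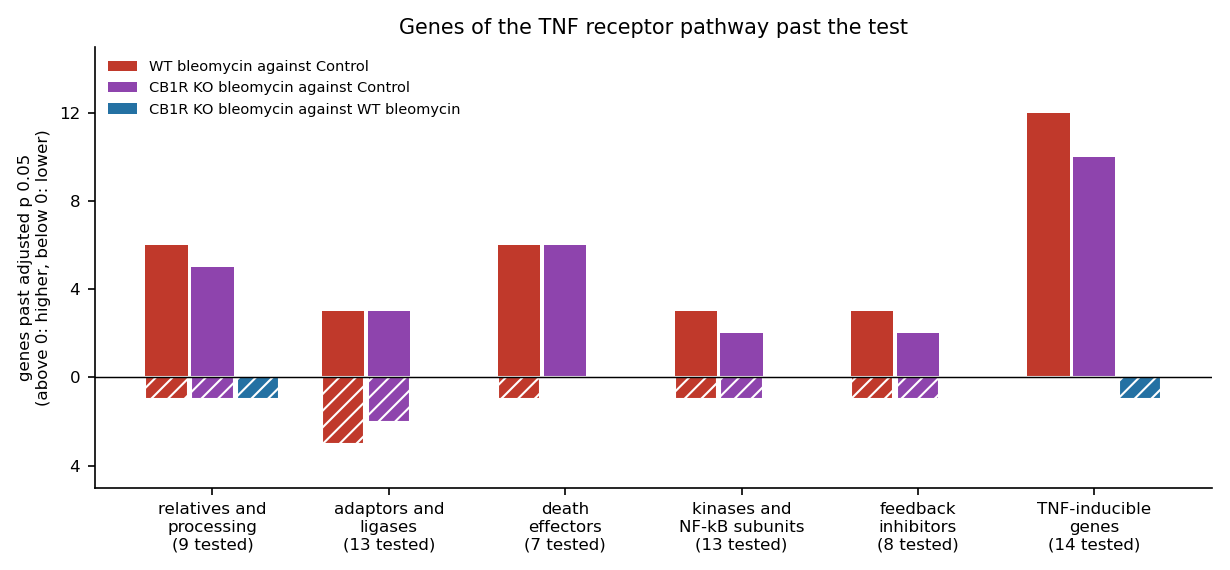
Number of genes past an adjusted p of 0.05 in each of 6 lists around the TNF receptors, above 0 for genes that were higher and below 0 (hatched) for genes that were lower in the first group named. The TNF-inducible list has 12 of 14 genes higher in WT bleomycin lungs, and the comparison of the genotypes has 1 gene lower in each of 2 lists.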

How the data were processed

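Lung RNA of 4 control, 5 WT bleomycin and 4 CB1R KO bleomycin mice was grouped by the treatment and genotype in the labels. The authors quantified the reads with kallisto on GRCm39 and deposited estimated counts, summed per gene over protein-coding transcripts, and TPM values. Reads shared by similar genes are split by the estimate, before the summing over transcripts. Rounded estimated counts were tested with edgeR 4.0.16 in R 4.3.3 (filterByExpr with a minimum count of 10, TMM, quasi-likelihood, 15315 genes, adjusted p threshold of 0.05), after the test was checked on simulated data. CPM values use TMM. Alternatives used DESeq2 1.42.0 and limma 3.58.1. Among the TPM columns, 1 belonged to no sample of the series and was not used. Tables per sample held the same values and were not used. Values in every library were given for the 10 members with the lowest p in WT bleomycin against control, the 6 with the lowest p between genotypes, and Tnf, Tnfrsf1a and Tnfrsf1b, and of each pathway list up to 3 genes with the lowest p in a comparison. The values of 1 pathway gene that this rule names are not reported here. Other genes with values were chosen after their values were seen. The members and lists were chosen with earlier results of these data known.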

Additional observations from a re-analysis of the deposited data

Results flagged for a closer look

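In 6 of the 114 groups of libraries screened, 1 library lay far from the rest of its group, and chance flags about 1 in 20 groups. Control mouse 3 was the highest of its group in Lta, at 1.84 CPM against 0.576 for the next, and in Tnfrsf19, at 79.9 CPM against 54.0. WT bleomycin mouse 4 was the highest in Ltb, at 33.3 CPM against 21.4, and the lowest in Tnfrsf23, at 0.76 CPM against 2.69. Control mouse 21 was the lowest in Tnf, at 0.781 CPM against 1.19. CB1R KO mouse 11, the library with the most counts, was the lowest in Tnfrsf12a, at 42.3 CPM against 56.3.

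The genotypes differed after bleomycin in Tnfrsf12a, with a log2 fold change of -0.6, and in Tnfsf18, with -1.93, by edgeR's test of the difference between the injured groups. Without uninjured knockout lungs an effect of genotype on the response to bleomycin and a difference present before it cannot be told apart.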

How the results depend on the processing

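Of 42 calls on members over the 3 comparisons, 29 were made in every alternative that gave a value, and none changed direction in the 24 or 25 alternatives run for each. Counts of members called stayed between 19 and 27 for WT bleomycin against control and between 11 and 16 for CB1R KO against control. Between the genotypes, where 2 members were called, the count was 1 with at least 10 counts in every library, with edgeR on the 2 groups, and with limma on log2(TPM + 1) or log2(TPM + 0.1). It was 4 with DESeq2 on the 2 groups, and 0 with the style of the titles as a term (10 at an unadjusted p below 0.05) or with lower-case titles only (7 at an unadjusted p below 0.05). Leaving out each library gave 0 to 4, with 0 without WT mouse 2, 5, 4-B2 or 7 or CB1R KO mouse 8, 9 or 11, and 4 without CB1R KO mouse 10. The pathway lists were run under the same alternatives, chosen after seeing the data. Of their 2 genes called between the genotypes, 1 was left with at least 10 counts in every library, edgeR on the 2 groups, limma on log2(TPM + 0.1) or CB1R KO mouse 11 thinned, 0 with the style of the titles as a term (14 at an unadjusted p below 0.05) or lower-case titles only (10 at an unadjusted p below 0.05), and 5 and 4 were called by DESeq2 on all libraries and on the 2 groups. Leaving out each library gave 0 to 4. The causes were not tested. Over all genes, 150 were called between the genotypes, 640 by DESeq2, 1 without CB1R KO mouse 9 and 653 without mouse 10. Tnfrsf1b, not called between the genotypes at 0.01, was at -0.11 with the style of the titles as a term, -0.12 with lower-case titles only and -0.09 to 0.11 leaving out each library. A minimum of 10 counts in every library gave no value for Fasl, Tnfrsf8, Tnfsf11, Tnfsf18 and Ccl2. No paired analysis was possible because the groups share no replicate numbers. Depth limits the genes near the filter, and the median SE over all genes was 0.11 to 0.12.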
